A study of Bos taurus with 12 samples.

Results

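TNF, the receptors TNFRSF1A and TNFRSF1B, the NF-kB subunits NFKB1, NFKB2, RELA and RELB, and the inhibitors NFKBIA and TNFAIP3 were examined in the mammary gland (MG) of dairy cows after an intra-mammary LPS challenge. These 9 genes were taken as a fixed list, and their probes were found through the RefSeq accessions of the array design, looked up in the bovine RefSeq table. Probes were matched for 8 of the 9 genes, and they made up 17 of the 43653 probes of the array. The 8 genes stand among 12639 genes that could be named. RELB was not analysed here.

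Mammary RNA (100 ng) was measured on single-color Agilent bovine arrays in 12 multiparous Holstein cows, with 1 cow per array and no pooling. The diets began at 24 ± 3 d in milk. The 6 CONT cows had a lactation diet offered ad libitum, and the 6 REST cows had for 4 d a ration in which barley straw made up 48% of the DM. Every cow, CONT included, had 50 µg of LPS infused into a healthy rear gland of the udder on d 3 and a single biopsy 24 h later, and only cows whose RNA passed the quality control of the study were put on arrays. The comparison is therefore between diets after LPS, and it does not measure the response to LPS itself, because no biopsy without LPS was analysed here.

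LPS is a cell wall component of Gram-negative bacteria, the group that includes Escherichia coli, a common cause of mastitis. Macrophages and epithelial cells that sense it release the cytokine TNF, which binds its receptors and, through the IKK kinases, frees NF-kB dimers to enter the nucleus. NF-kB in turn induces TNF, the precursor subunits NFKB1 and NFKB2, and its own brakes: NFKBIA, the IkB protein that holds NF-kB in the cytoplasm, and TNFAIP3, a ubiquitin-editing enzyme that ends signaling from the receptor.

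None of the 17 probes passed the test between diets. The Westfall-Young and the Benjamini-Hochberg adjusted p-values from limma were 1.0 for each of the 17 probes, and over all 43653 probes each adjustment also called 0 (0% of the probes tested). At an unadjusted p under 0.05, 0 of the 17 probes were found, against 1143 or 2.62% of all probes. The groups overlapped for each of the 17 probes, whereas they were fully separate for 56 or 0.128% of all probes. Among the 8 genes, each represented by its brightest probe, 7 had a lower mean in REST, while 56.5% of all named genes were lower. The median difference between REST and CONT over the 8 genes was -0.27 on the log2 scale, against -0.034 over all named genes. With the array slide as a block, 5 of the 8 genes were lower, with a median of -0.14.

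All signals are log2 intensities minus the log2 75th percentile of their own array, so that 0 is the brightness of that percentile and a negative value is a dimmer spot. The 12 arrays came from 3 slides, on which CONT and REST were not evenly placed: there were 3 CONT and 1 REST arrays on slide 1, 1 and 3 on slide 2, and 2 of each on slide 3. The array of REST cow 2, on slide 2, stood apart from the others. It had the lowest 75th percentile (386.9, against 508.5 to 1183.9 on the other arrays) and the lowest median correlation with the others (0.9569, against 0.9613 to 0.9738). The difference of each of the 8 genes is therefore also given without this cow, as are those of several other named genes. In biopsies of whole tissue, fewer cells of a type and less RNA per cell cannot be told apart. The number of arrays limits the precision, and the labels give each cow the same replicate number, so cows are numbered here only to name them.

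**Figure D1:**
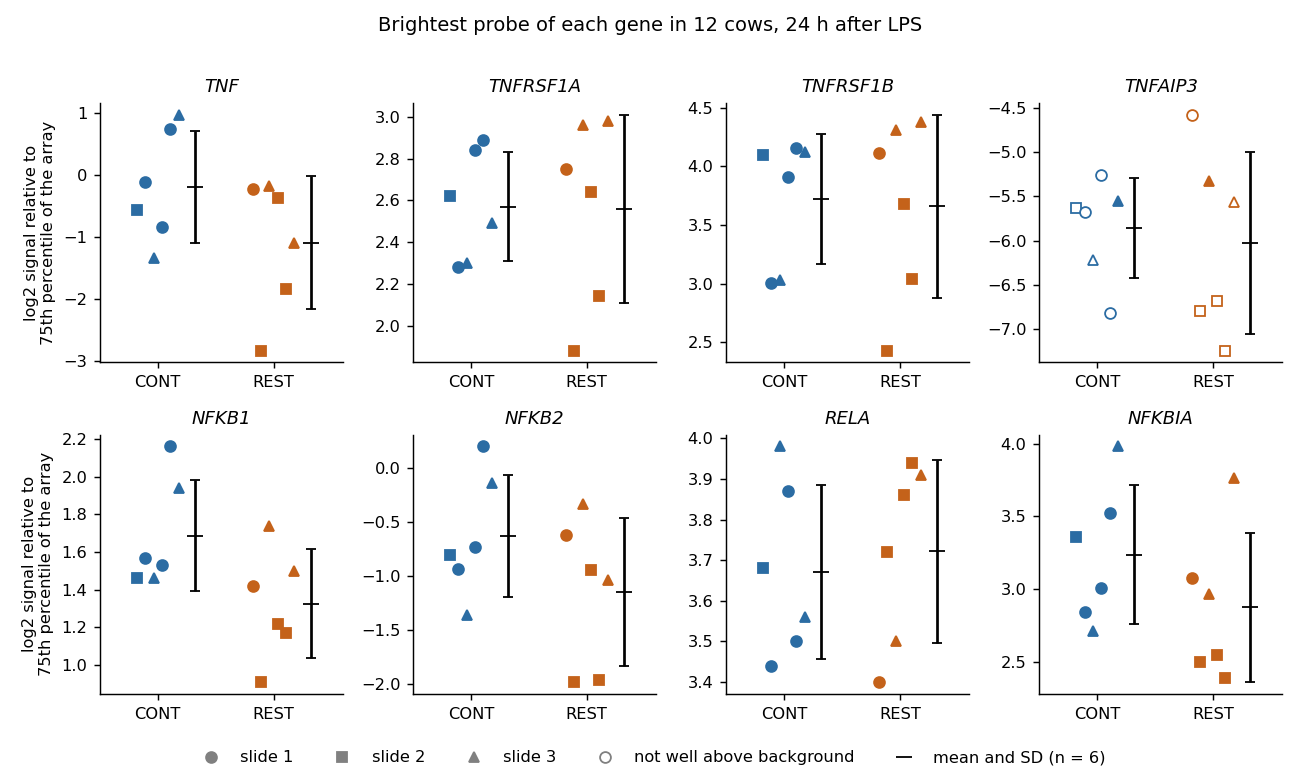
Log2 signal relative to the array's 75th percentile (y axis, a separate scale per panel) for the brightest probe of each of the 8 genes in 6 CONT and 6 REST cows, with the slide shown by the marker shape, and the mean and SD of each group as a bar. The groups overlapped in every panel, and REST cow 2 had the lowest value of TNF (-2.83), TNFRSF1A (1.88), TNFRSF1B (2.43), NFKB1 (0.91) and NFKB2 (-1.98).

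TNF (NM_173966), the cytokine at the head of the pathway, had the largest difference of the 8 genes. Its brighter probe was well above background on all 12 arrays. In CONT the lowest, median and highest log2 signals were -1.33, -0.34 and 0.97, and in REST they were -2.83, -0.73 and -0.17. The 3 highest values were all in CONT cows, the 2 lowest were in REST cows, and the groups overlapped between -1.33 and -0.17. The mean was -0.19 ± 0.90 in CONT and -1.09 ± 1.07 in REST (SD, n = 6), a log2 difference of -0.90 with a standard error of 0.52 and a 95% interval from -2.03 to 0.23. As a ratio of signals, CONT was 1.86 times REST, and the interval for REST over CONT ran from 0.246 to 1.17. The difference was not significant (limma, unadjusted p = 0.109; exact two-sided permutation test over 924 assignments of the cows, p = 0.147). Without REST cow 2 the log2 difference was -0.55, and with the slide as a block it was -0.56.

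The other TNF probe was dimmer and stood well above background in 4 cows of each diet. It gave a log2 difference of -0.86 (standard error 0.53), and it ranked the cows nearly as the brighter probe did (Pearson's r = 0.98 over the 12 cows). Within slides the brighter probe was lower in REST on each of the 3 slides, by log2 differences of -0.16, -1.11 and -0.45. The dimmer probe gave 0.16, -1.35 and -0.55, so the sign within slide 1 depends on the probe. REST cow 2 and REST cow 5, with TNF at -2.83 and -1.84, were both on slide 2, which held 1 CONT cow at -0.57.

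TNFRSF1A (NM_174674), the broadly expressed TNF receptor that carries a death domain, had nearly equal means in the diets. Its log2 signal was lowest at 2.28, with a median of 2.55 and a highest value of 2.89, in CONT. In REST these values were 1.88, 2.69 and 2.98. The REST cows were more spread than the CONT cows, with 2 of them below and 2 above all CONT cows. The difference was -0.014 (standard error 0.22, 95% interval -0.49 to 0.46), an interval that reaches from 1.40-fold lower to 1.38-fold higher in REST. Its sign was not stable, at 0.12 without REST cow 2 and 0.13 with the slide as a block. On slides 1 to 3 the differences were 0.077, -0.40 and 0.57, so the slides disagreed in sign.

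TNFRSF1B (NM_001040490), the TNF receptor found mainly on leukocytes and endothelial cells, showed the same spread. Its brighter probe ran from 3.01 to 4.16 in CONT (median 4.00) and from 2.43 to 4.38 in REST (median 3.89). In REST, 1 cow lay below all CONT cows and 2 lay above. The log2 difference was -0.064 (standard error 0.36, 95% interval -0.85 to 0.72), and it was 0.18 without REST cow 2 and 0.12 with the slide as a block. On slides 1 to 3 it was 0.41, -1.05 and 0.77. The dimmer probe differed by -0.10 (standard error 0.18), but it followed the brighter one only loosely over the cows (r = 0.43), so the values per cow depend on the probe.

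NFKB1 (NM_001076409), the gene of the precursor from which the DNA-binding partner of RELA is cut, had the lowest unadjusted p of the 17 probes. In CONT its lowest, median and highest log2 signals were 1.46, 1.55 and 2.16. In REST they were 0.91, 1.32 and 1.74. In REST, 4 of the 6 cows lay below all CONT cows, and 5 lay below the CONT mean. The mean was 1.69 ± 0.29 in CONT and 1.33 ± 0.29 in REST (SD, n = 6), so the log2 difference was -0.36, with a standard error of 0.19 and a 95% interval from -0.76 to 0.043. The test did not pass (limma, unadjusted p = 0.0759; exact permutation p = 0.0563, where 0.00216 is the lowest this test can give). With the slide as a block the difference was -0.24, and without REST cow 2 it was -0.28.

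The other NFKB1 probe gave nearly the same difference, -0.35 (standard error 0.23), with 5 REST cows because the spot of REST cow 1 was marked as an outlier. With the mean over both probes the difference was -0.12, a value in which REST cow 1 is represented by the brighter probe alone. The brighter probe was lower in REST on each slide, by -0.34, -0.36 and -0.075. The sign of NFKB1 was thus kept on all slides, while its size was smallest on slide 3, where the diets were balanced.

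NFKB2 (NM_001102101), the precursor of the alternative NF-kB pathway, was also lower on average in REST. Its 1 probe ranged from -1.36 to 0.20 in CONT (median -0.77) and from -1.98 to -0.33 in REST (median -0.99). In NFKB2, 2 REST cows were below all CONT cows and 2 CONT cows were above all REST cows. The log2 difference was -0.52, with a standard error of 0.34 and a 95% interval from -1.26 to 0.22 (limma, unadjusted p = 0.155). It was -0.35 without REST cow 2 and -0.26 with the slide as a block. On slides 1 to 3 the difference was -0.14, -0.82 and 0.068.

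RELA (NM_001080242), the subunit that carries the transactivation domain of the main NF-kB dimer, was the only one of the 8 genes with a higher mean in REST, by 0.053 (standard error 0.16, 95% interval -0.29 to 0.39). Its brightest probe lay within a narrow range, from 3.44 to 3.98 in CONT (median 3.62) and from 3.40 to 3.94 in REST (median 3.79). The 4 probes of RELA differed between diets by -0.07 to 0.053. They did not order the cows alike: the correlation between pairs of these probes ran from -0.22 to 0.84, with a median of 0.53. Without REST cow 2 the brightest probe was at 0.054 and with the slide as a block at -0.035, so the direction of RELA depends on the setting.

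NFKBIA (NM_001045868) had a lower mean in REST with each of its 4 probes, by -0.37, -0.34, -0.19 and -0.22 in order of brightness. The brightest probe was lowest at 2.71, had a median of 3.19 and reached 3.98 in CONT, and these values were 2.39, 2.76 and 3.76 in REST. The REST cows 2, 4 and 5, all on slide 2, lay below all CONT cows, while REST cow 6 at 3.76 was second only to 1 CONT cow. The log2 difference of -0.37 had a standard error of 0.28 and a 95% interval from -0.97 to 0.24 (limma, unadjusted p = 0.211). It was -0.29 without REST cow 2 and -0.27 with the slide as a block. On slide 2 the difference was -0.89, but on slides 1 and 3 it was -0.049 and 0.019. The 4 probes ordered the cows almost identically, with correlations from 0.92 to 0.98.

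TNFAIP3 (NM_001192170) was close to the detection limit. Its 1 probe stood well above background in 1 cow of each diet only, with log2 signals from -6.82 to -5.26 in CONT (median -5.65) and from -7.24 to -4.58 in REST (median -6.12). The difference of -0.17 (standard error 0.44, 95% interval -1.13 to 0.78) lies within the range where spots carry little signal. It was -0.02 without REST cow 2, and the sign changed with the slide as a block, to 0.19. For TNFAIP3 these arrays thus bound the difference only loosely.

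**Figure D2:**
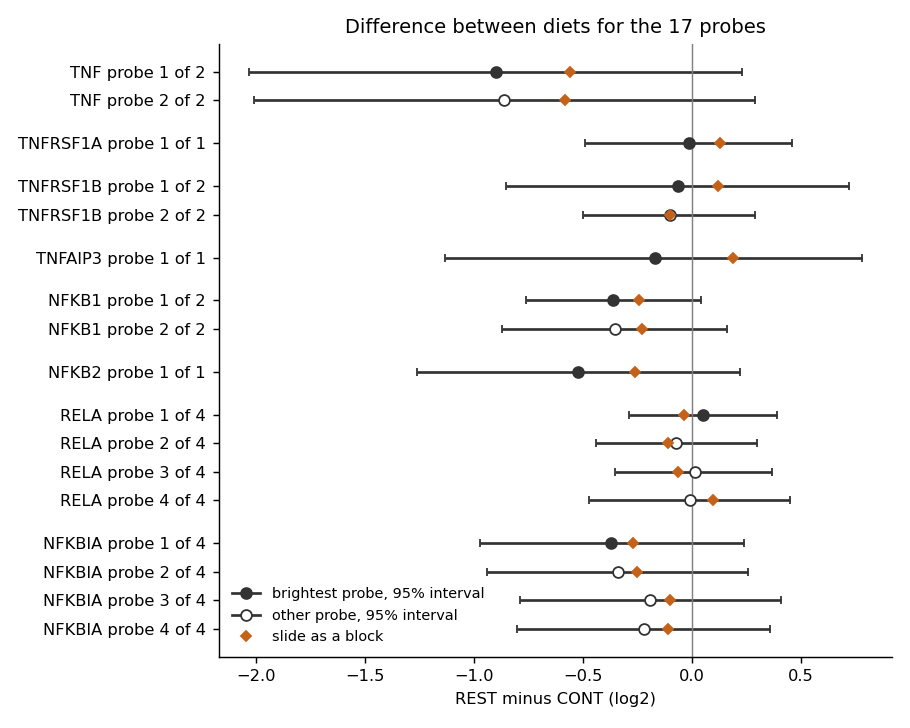
Log2 difference between REST and CONT (x axis) for the 17 probes, ordered by gene and then by brightness, as the estimate with its 95% interval from limma and, as a diamond, the estimate with the slide as a block. All 17 intervals include 0, and the TNF probes have the lowest estimates (-0.90 and -0.86).

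The 8 genes did vary between cows, and several of them varied together. These correlations are descriptions over the same 12 cows, which share the array scaling, the slides and the cell makeup of the biopsy, and no test was made of them. Among the 28 pairs, TNF and NFKB2 (Pearson's r = 0.93, Spearman's rho = 0.88) and TNFRSF1A and TNFRSF1B (r = 0.93, rho = 0.87) were the closest. They were followed by NFKB1 with NFKB2 (r = 0.90, rho = 0.79) and TNF with NFKB1 (r = 0.87, rho = 0.78). For TNF and NFKB2, r was 0.89 within CONT, 0.93 within REST, 0.90 after the slide means were taken away and 0.92 without the 2 cows farthest from the median of TNF. For TNF and NFKB1 these values were 0.88, 0.79, 0.82 and 0.75. The pairing of cows with high TNF and high NFKB1 and NFKB2 was therefore present in both diets.

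The receptors kept their correlation within slides (0.92), within CONT (0.79), within REST (0.99), and without the 2 farthest cows (0.85). This holds for the brighter TNFRSF1B probe, since the dimmer one correlated with TNFRSF1A at 0.32 (rho = 0.27). Over the 15 pairs that leave out RELA and TNFAIP3, r ran from 0.57 to 0.93 with a median of 0.73, and without REST cow 2 from 0.32 to 0.91 with a median of 0.65. RELA went the other way, with r from -0.61 to -0.19 in its 7 pairs, but this holds for its brightest probe, with which the dimmer ones were not all in step. The sign was not stable even for that probe, since under normexp RELA was at 0.10 with TNFRSF1A and 0.11 with TNFRSF1B. The correlations of TNFAIP3, between -0.43 and 0.56, were negative in all 7 of its pairs under normexp background correction, 6 of which had been positive, and are not interpreted.

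**Figure D3:**
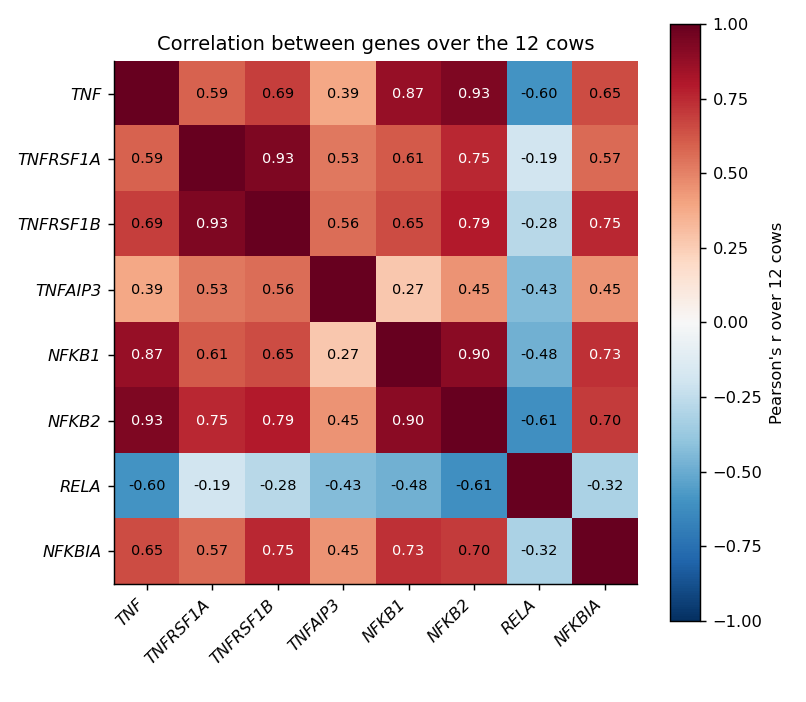
Pearson's r over the 12 cows for each pair of the 8 genes, each by its brightest probe, on a color scale from -1 to 1. TNF, NFKB1 and NFKB2 form a group of high values (0.87 to 0.93) and the receptors TNFRSF1A and TNFRSF1B another (0.93), while the row of RELA is negative throughout.

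Against all genes, the close pairs stand high but not alone. Of 9000 genes well above background on every array, NFKB2 was the 15th most correlated with TNF and NFKB1 the 146th, whereas the median correlation with TNF was 0.015. TNFRSF1B was the 11th of 9000 for TNFRSF1A. NFKB2 was the 8th for NFKB1. NFKBIA was farther down for TNF (r = 0.65, rank 1295).

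Genes outside the list that followed each member most closely over the 12 cows were found among 8994 candidates. For TNF they were CFI (r = 0.97), which encodes the complement-cleaving factor I, and ZNF184 (r = 0.96), a zinc finger gene. NFKB1 was followed by S1PR3, a receptor for sphingosine-1-phosphate (r = 0.94), and for NFKB2 they were PJA1 and DELE1 (0.95 for each). TNFRSF1A was followed by BRMS1 and PFN1, the actin-binding profilin (0.95 for each), and TNFRSF1B by PPP1R18 and LDHA, a lactate dehydrogenase subunit (0.96 for each). RELA was followed by AP5B1 and NDUFB10 (0.89 for each). NFKBIA was followed by DEFB4A (0.91), a beta-defensin whose probe may also bind related defensins, and by IFNGR1 (0.89), a receptor chain for interferon gamma. Of these, CFI had a log2 difference between diets of -1.22 (standard error 0.98) and DEFB4A one of -1.54 (standard error 0.90). Neither passed the test, with limma adjusted p-values of 1.0, and without REST cow 2 they were -0.45 and -1.03.

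The levels of several of the genes also went with the overall brightness of the array. The log2 75th percentile, which the scaling subtracts, correlated over the 12 cows with TNF at 0.81 (rho = 0.69), with TNFAIP3 at 0.75, with NFKB2 at 0.74, with NFKBIA at 0.71, with NFKB1 at 0.68, with TNFRSF1B at 0.64, with RELA at -0.58 and with TNFRSF1A at 0.54 (0.0036 within CONT). Without REST cow 2 the receptors were at 0.42 (TNFRSF1B) and 0.26 (TNFRSF1A). For TNF, 3.66% of the 23908 probes well above background on all arrays had a larger correlation of either sign, and r was 0.68 without REST cow 2. This share was 7.62% for TNFAIP3, 8.47% for NFKB2, 12% for NFKBIA, 14.6% for NFKB1, 19.8% for TNFRSF1B, 27.9% for RELA and 33.8% for TNFRSF1A. Correlations of that size were thus common among probes for RELA and the receptors, and less so for TNF, TNFAIP3 and NFKB2. The TNFAIP3 probe itself was well above background in only 1 cow of each diet. After the line on the 75th percentile was taken away, the correlation of TNF was 0.84 with NFKB2 and 0.73 with NFKB1, that of NFKB1 with NFKB2 was 0.81, and that between the receptors was 0.90. Most other pairs were lower after this step: over the 15 pairs without RELA and TNFAIP3 the median went from 0.73 to 0.47, with TNF and NFKBIA lowest at 0.19. RELA then had positive correlations with TNFRSF1A (0.18), TNFRSF1B (0.16) and NFKBIA (0.16). Brightness was also uneven between diets. REST cows 2, 5 and 4, all on slide 2, had 75th percentiles of 386.9, 508.5 and 569.6, below all CONT arrays (577.1 to 1183.9). The other REST arrays were at 735.6 to 1082.0. Leaving out REST cow 2 alone does not remove this unevenness. The part of brightness in the difference between diets was not tested.

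**Figure D4:**
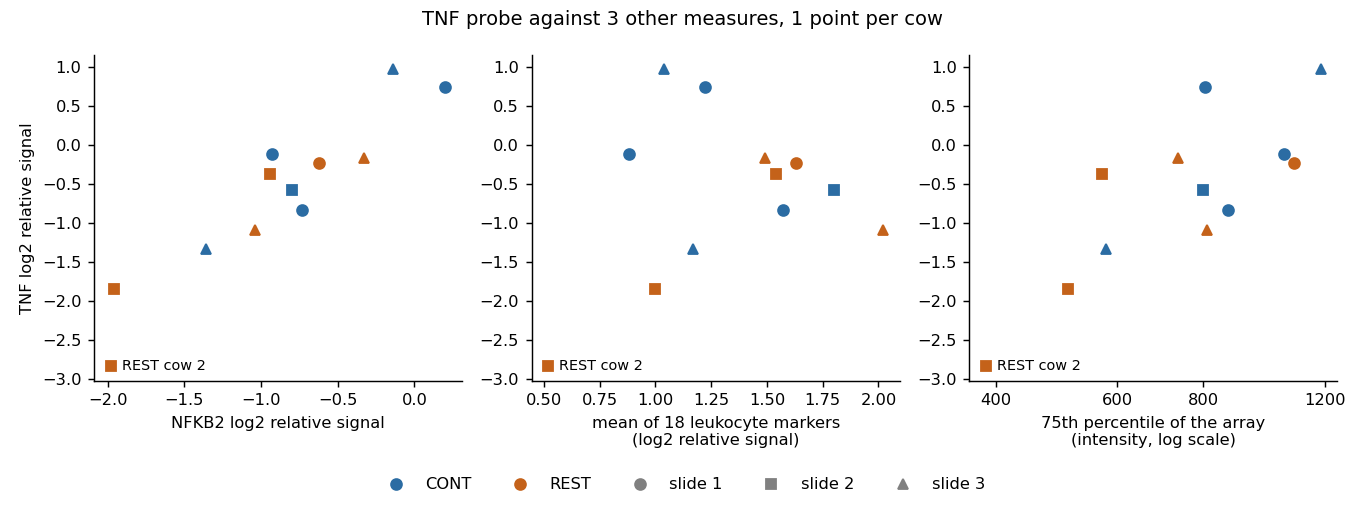
Log2 relative signal of the TNF probe (y axis) in each of the 12 cows against the NFKB2 probe, the mean of 18 leukocyte markers (both log2 relative signal) and the 75th percentile of the array (intensity, log axis), with color for the diet and shape for the slide. TNF follows NFKB2 (r = 0.93) and array brightness (r = 0.81) more closely than the leukocyte markers (r = 0.28), and REST cow 2 is at the low end of all 3 plots.

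Markers of the cell types in the biopsy were set beside these values. Of 20 leukocyte markers 19 had a probe, and each was well above background on at least 1 array. Their summed signal, in multiples of the 75th percentile, was 62.6 to 231 in CONT and 75 to 257 in REST, and 8 were lower and 11 higher in REST. The sum is weighted to the brightest markers and does not describe the 19 evenly. S100A12 alone reached log2 signals of 7.01 in CONT and 7.03 in REST. The mean of the 18 leukocyte markers with enough signal correlated with TNFRSF1A at 0.83 and with TNFRSF1B at 0.80, but with TNF at 0.28 and with NFKB1 at 0.20. The dimmer TNFRSF1B probe correlated with it at 0.18, and TNF did so at -0.19 without REST cow 2. The brighter receptor probes thus had higher correlations with the leukocyte markers than the ligand and NFKB1 had, a difference that was not tested.

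The mean of the 6 fibroblast markers followed TNF over the cows. It correlated with TNF at 0.83, with NFKB2 at 0.82 and with NFKB1 at 0.75, and it was lower in REST by 0.53 on the log2 scale, with a summed signal of 49.5 to 66.9 in CONT and 23.0 to 69.4 in REST. Without REST cow 2 this difference was -0.36 and the correlation with TNF 0.70. Singly, the 6 markers correlated with TNF at 0.48 (LUM) to 0.85 (COL3A1), and 5 of 6 had a lower mean in REST, with PDGFRA at 0.036. Other probes of COL3A1 and DCN were higher in REST, by up to 0.15 and 0.95. The collagen genes COL1A1 (-0.72) and COL1A2 (-0.65) and the matrix proteoglycan gene LUM (-0.84) were under an unadjusted p of 0.05, with adjusted p-values of 1.0. With the slide as a block COL1A1 was at -0.39 and COL1A2 at -0.45, both no longer under that level, while LUM was at -0.83 and stayed under it. The 6 endothelial markers all had a higher mean in REST, with a summed signal of 3.18 to 11.8 in CONT and 8.95 to 15.5 in REST, a mean difference of 0.46 and VWF, the von Willebrand factor gene, at 0.79, and their mean correlated with TNF at -0.67. The mean of these markers was -1.47 in CONT cow 6, which had the highest TNF, against 0.27 to 0.56 in the other CONT cows, and without CONT cow 6 the difference was 0.15 and the correlation with TNF -0.66. The T cell gene CD3D (0.60) was also under an unadjusted p of 0.05, but not with the slide as a block (0.50). Its other probe was at -0.12. Among other T cell genes, CD3E (-0.093) and CD8A (-0.22) had a lower mean in REST, and CD2 (0.15) and CD4 (0.096) a higher one. The B cell gene MS4A1 was under an unadjusted p of 0.05 too. Its probe was well above background in 0 CONT and 4 REST cows, so its difference is not given. The part of tissue makeup in the values of TNF and NF-kB genes was not tested.

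The milk-secreting epithelium was present in every biopsy, with 10 of 11 markers matched and a summed signal of 1640 to 4580 in CONT and 2210 to 6210 in REST. Of these 10, 2 were lower and 8 higher in REST, with a median difference of 0.25, and their mean correlated with TNF at -0.56. Myoepithelial markers were lower in REST for 5 of 6 genes, with a median of -0.19. Of 6 adipose markers 4 had a probe, with 1 lower and 3 higher in REST. FABP4, a fatty acid carrier, was the 1 that stood well above background in every cow of a group. LEP went the other way, at -1.02, with spots well above background in 4 CONT and 1 REST cows. PLIN1 was at 0.25 and CIDEC at 0.11, so the adipose markers did not share a direction. FABP4 ran from 2.87 to 7.35 in CONT and from 6.65 to 7.92 in REST, with a log2 difference of 1.20 (standard error 0.62, adjusted p = 1.0 in limma) and all 6 REST cows above the CONT mean. It was 0.59 without CONT cow 6, which held the lowest value.

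The other genes of the pathway gave the same picture of no call. Of 90 further genes in 8 lists, 79 had a probe, and 0 passed either adjustment. Over all named genes, 1.02% were lower and 1.63% higher in REST at an unadjusted p under 0.05. In the lists, 5 genes were lower and 0 were higher at that level. These were BIRC3, CYLD, CD40, IL1A and PTGS2, and for each of them all 6 REST cows lay below the CONT mean. With the slide as a block none of the 5 was under 0.05, with limma unadjusted p-values from 0.057 to 0.131, and the chemokine gene CCL5, higher in REST by 0.98, was the 1 list gene that was. Without REST cow 2, CD40 was no longer under 0.05, the other 4 were, and ZFP36 and CCL5, both higher in REST, were added.

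Among adaptors and ubiquitin ligases that act at the TNF receptor, 6 of 11 measured genes were lower in REST, with a median of -0.027. BIRC3, an NF-kB-induced ubiquitin ligase of the receptor complex, ran from 2.54 to 3.62 in CONT (median 2.72) and from 1.20 to 2.77 in REST (median 2.05). Its log2 difference was -0.84 (standard error 0.30; limma, unadjusted p = 0.0147, adjusted p = 1.0), and it was -0.68 without REST cow 2 and -0.69 with the slide as a block. TRAF3, a brake on the alternative NF-kB pathway, was at -0.22 (standard error 0.25) and at -0.084 without REST cow 2.

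Among the other negative regulators, 6 of 8 were lower, with a median of -0.11. CYLD, a deubiquitinating enzyme that, like TNFAIP3, limits receptor signaling, ran from -1.11 to -0.62 in CONT and from -1.50 to -0.94 in REST. The difference was -0.38 (standard error 0.15, unadjusted p = 0.0222 and adjusted p = 1.0 in limma) and did not depend on REST cow 2, without which it was again -0.38. The other CYLD probe was at -0.17, so the size depends on the probe. In the same list ZFP36, the protein that destabilizes TNF mRNA, had the opposite sign, with 0.80 (standard error 0.44) and 5 of 6 REST cows above the CONT mean. ZFP36 reached 1.19 without REST cow 2 and 0.97 with the slide as a block.

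Of the IKK complex and its upstream kinases, 5 of 9 were lower, with a median of -0.10. MAP3K14, the kinase that drives processing of the NFKB2 precursor, had the largest difference, at 0.97 (standard error 0.46, limma unadjusted p = 0.0549). It was 0.62 without REST cow 2 and 0.45 under normexp. TAB3 was at 0.49, but its spots were well above background in 4 CONT and 6 REST cows. It was thus named through the diet where it was higher, and under normexp it was at 0.034. Both genes gave dim spots. The other subunit and IkB genes were split, with 3 of 6 lower and a median of 0.068. Among them REL was at 0.15 (0.096 without REST cow 2) and NFKBID at 0.16 (0.26 without it). Neither sign was stable, since REL was at -0.032 under normexp and another NFKBID probe was at -0.51. The 2 measured genes of TNF shedding and expression were LITAF, at -0.22 (-0.072 without REST cow 2), and ELAVL1, at -0.16.

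In the TNF superfamily, 9 of 10 measured ligands and receptors were lower, with a median of -0.22. With the slide as a block 7 were lower, with a median of -0.15. Only 6 of the 10 genes were well above background in every cow of a group, so the tally includes genes with little signal. CD40, the co-stimulatory receptor of antigen-presenting cells, ran from -0.16 to 0.60 in CONT and from -1.10 to 0.12 in REST, a log2 difference of -0.54 (standard error 0.22, unadjusted p = 0.0303 and adjusted p = 1.0 in limma). Without REST cow 2 it was -0.38, and with the slide as a block -0.35. TNFRSF13C, the B cell receptor for BAFF, was the 1 gene with a higher mean, at 0.64. Its spots were dim, it was at 0.33 under normexp and its other probe was at 0.15, so its size is uncertain. TNFSF11 had no array with a spot well above background.

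NF-kB target genes were lower in REST for 18 of 23 measured genes, with a median of -0.23, but with the slide as a block 13 of 23 were lower and the median was -0.025. IL1A, the cytokine interleukin-1 alpha, differed by -0.77 (standard error 0.30, unadjusted p = 0.0218 and adjusted p = 1.0 in limma). PTGS2, the inducible cyclooxygenase, differed by -0.80 (standard error 0.29, unadjusted p = 0.0179 and adjusted p = 1.0). Both probes were dim, and IL1A stood well above background in 5 CONT and 3 REST cows. With the slide as a block IL1A was at -0.55 and PTGS2 at -0.48. Under normexp their differences were -0.24 and -0.36. The other IL1A probe was at -0.28, and the 3 PTGS2 probes ran from -0.80 to -0.14. Their size thus depends on the background correction and on the probe.

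SOD2, the mitochondrial superoxide dismutase, had the largest difference of the target list, -1.24 (standard error 0.67). Its REST values ran from 1.58 to 6.12, against 5.36 to 6.74 in CONT, and the difference was -0.58 without REST cow 2, which held the lowest value. CXCL2, a neutrophil chemokine, was at -1.08, at -0.44 without REST cow 2 and at -0.025 with the slide as a block. Its probe was well above background in 6 CONT and 3 REST cows, and under normexp it was at -0.31. Its size and its place in the list are therefore uncertain. CCL20 and CSF2 had no array with a spot well above background. The mean of the 14 targets well above background on every array correlated over the 12 cows with TNFRSF1A and TNFRSF1B at 0.90 each, with NFKB2 at 0.85 and with TNF at 0.82, but with RELA at -0.35. This mean was 0.0061 in REST cow 2, against 0.93 to 2.2 in the other cows. The correlations of the target mean were not computed without that cow.

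Genes of the MAPK and AP-1 branch of TNF signaling were lower in REST for 3 of 10, with a median of 0.022. DUSP1, a phosphatase that ends MAPK signaling, was at 0.34, and FOS was at 0.26, or 0.79 without REST cow 2. Several of the higher means lay close to 0, with JUN at 0.0053, MAPK9 at 0.022, MAP2K3 at 0.023 and JUNB at 0.028. The majority in this list was opposite in sign to that of the NF-kB targets, but it was made partly by such values. With the slide as a block 2 of 10 were lower here, with a median of 0.19, against 13 of 23 targets. The difference between the lists was not tested.

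**Figure D5:**
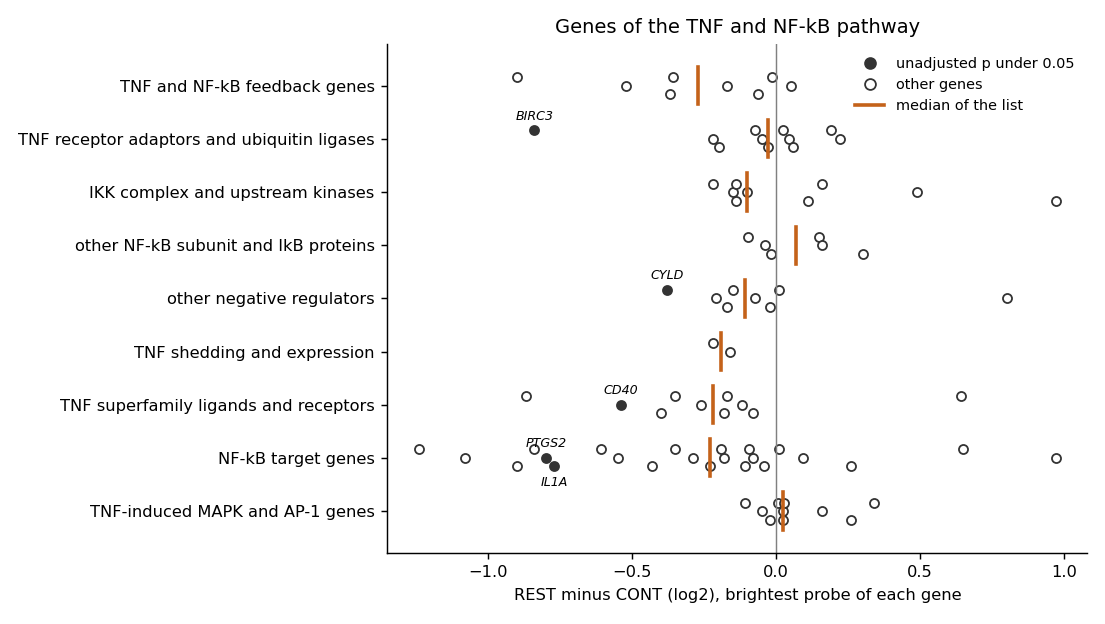
Log2 difference between REST and CONT (x axis) of the brightest probe of each measured gene, by list, with the median of each list as a vertical bar and filled points for an unadjusted p under 0.05. The 5 filled points (BIRC3, CYLD, CD40, IL1A, PTGS2) all lie below 0, and none of the genes passed an adjusted threshold.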

How the data were processed

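RNA of 12 mammary biopsies (6 CONT, 6 REST) was amplified, labeled with Cy3 and hybridized by the authors, who extracted the spots with Feature Extraction 11.0.1.1. The deposited values are spot intensities after the background subtraction and detrending of that software, not normalized between arrays, and the deposited matrix holds the same values (largest difference 0). Here, controls were left out, spots marked as outliers were set to missing, intensities were put on the log2 scale, the 75th percentile of each array was subtracted and spots of a probe were averaged.

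The 43653 probes were fitted together with limma 3.58.1 in R 4.3.3 (lmFit, eBayes, two-sided), with Westfall-Young step-down adjustment over 100 of the 462 distinct divisions of the cows (lowest possible adjusted p 0.01), Benjamini-Hochberg beside it, and a threshold of 0.05. The fit was tested on simulated data, of which no result is given here. Exact permutation tests covered single probes. A gene is represented by its brightest probe (highest mean over the arrays). Genes named besides the 9 are list genes with an unadjusted p under 0.05, otherwise the 2 largest differences of a list among genes well above background on every array of a group, and the 2 genes most correlated with a member, of which 1 is not reported here. Marker genes named are those under an unadjusted p of 0.05, those that decide a list's value, other T cell genes beside CD3D and other adipose genes beside FABP4. JUN, JUNB, MAPK9 and MAP2K3 are named as list genes with a difference close to 0.

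The genes and lists were chosen with earlier results of these data known. Alternatives were quantile normalization, normexp (offset 50), the deposited matrix, outlier spots kept, a percentile over probes well above background, a filter on dim probes, an intensity trend, the slide as a block or within slides, the mean over a gene's probes, and leaving out each cow. The views of the correlations and the alternatives for list and marker genes were chosen after seeing the data, as was the naming of CCL5. The accessions come from an array design made on another assembly than the RefSeq table, so no positions are given, and probe and gene sequences were not used here. Figures were drawn with matplotlib 3.10.9.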

Additional observations from a re-analysis of the deposited data

How the results depend on the processing

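No member probe passed an adjusted threshold under any alternative or with any cow left out. The number of the 8 genes with a higher mean in REST was 1, and it was 2 with quantile normalization and with the percentile over probes well above background, 3 with the slide as a block, 0 with the mean over a gene's probes, 3 within slide 1 and 5 within slide 3. It ran from 1 to 4 with 1 cow left out, with 4 without REST cow 5. The number of member probes under an unadjusted p of 0.05 was 0, and 0 to 1 with 1 cow left out: NFKB1 at -0.44 without REST cow 3, and an NFKBIA probe at -0.53 without REST cow 6, each with a limma adjusted p of 1.0. Of the 79 pathway list genes, 5 were under that level, against 3 with normexp, 8 with an intensity trend, 1 with the slide as a block and 4 to 7 with 1 cow left out.

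TNFRSF1A, TNFRSF1B, TNFAIP3 and RELA changed sign. TNFRSF1A was 0.0073 with quantile normalization, 0.017 with the percentile over probes well above background and 0.13 with the slide as a block, and ran from -0.098 to 0.12 with 1 cow left out. TNFRSF1B was 0.12 with the slide as a block and ran from -0.21 to 0.18 with 1 cow left out. TNFAIP3 was 0.19 with the slide as a block, ran from -0.46 to 0.07 with 1 cow left out, and has no value under the filter on dim probes. RELA was -0.035 with the slide as a block and -0.0027 with the mean over its probes. The causes were not tested. TNF, NFKB1, NFKB2 and NFKBIA kept a lower mean in REST in these alternatives, though within slide 3 NFKB2 was at 0.068 and NFKBIA at 0.019. NFKB1 was -0.12 with the mean over its probes, where 1 cow lacked the dimmer probe. TNF ran from -1.13 to -0.55 with 1 cow left out, with -0.55 without REST cow 2.

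With 6 arrays per diet, the interval for TNF still included CONT at 4.07 times REST, a width that follows from the spread between cows and the number of arrays. TNFAIP3 and the dimmer TNF probe are limited by signal over background, and slide and diet were only partly balanced. No paired analysis was possible, because CONT and REST cows are different animals and no label ties them in pairs. With the filter on dim probes, 1 of 26678 probes passed the Westfall-Young adjustment, and it was not a member.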
